A study of Homo sapiens with 2 samples.

Results

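The aminoacyl-tRNA synthetase genes comprised the 38 genes of a list chosen by name, with earlier results of these data known. They were 20 cytosolic enzymes, 16 mitochondrial enzymes and 2 scaffold proteins, AIMP1 and AIMP2. All 38 were found among the 20037 protein-coding genes of the gene table used here. They were looked up in a chromatin immunoprecipitation sequencing (ChIP-seq) peak list of MHCC-97H cells, an established human hepatocellular carcinoma (HCC) line, that overexpressed HA-tagged regulatory factor X6 (RFX6), a transcription factor of the winged-helix RFX family. The precipitate of HA-RFX6 chromatin is 1 library, the other library of the series is input from MHCC-97H cells, and no processed file of the input was used. There was thus no replicate and no control list, the read depth behind each peak was unknown, and the identity of the line cannot be checked from a peak list. The list held 5019 distinct intervals on the nuclear chromosomes, with whole-number scores from 13 to 170 and a median of 30. What the score measures is not given in the sources used here, and it was read only as a rank within the list. The submitters' notes name the build GRCh37, but the intervals lay at gene ends of GRCh38.p14. Within 1 kb of an end, 3100 protein-coding genes had an interval, compared with 403 and 411 after the intervals were moved by 20 kb down and up. Coordinates are therefore given in GRCh38.

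Aminoacyl-tRNA synthetases join each amino acid to its tRNA, the step at which the genetic code is read into protein. Cytosolic and mitochondrial translation mostly use separate enzymes encoded by separate nuclear genes, marked in most symbols by the suffixes 1 and 2, whereas GARS1 and KARS1 serve both compartments. Several cytosolic enzymes sit in a multi-synthetase complex held together by AIMP1, AIMP2 and a further scaffold. In liver, as in other tissues, these genes are broadly expressed, and many of the cytosolic ones are known targets of ATF4, the transcription factor of the amino acid response. RFX proteins bind the X-box, an inverted repeat of a short arm, as dimers.

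A larger share of the synthetase genes than of all genes had an RFX6 interval at an end, and the share was larger among the cytosolic than among the mitochondrial genes. The midpoint of at least 1 interval was within 1 kb of a gene end at 18 of the 38 genes (47.4%, 95% Wilson interval 32.5% to 62.7%), where all protein-coding genes gave 15.5%. Of the cytosolic enzymes, 13 of 20 had such an interval (65.0%, 43.3% to 81.9%). Of the mitochondrial enzymes, 5 of 16 did (31.2%, 14.2% to 55.6%), and of the scaffolds 0 of 2. The cytosolic share was higher by 33.8 percentage points, with a 95% Newcombe interval from 1.13 to 57.8. This interval covers the counting of genes only. Since there was 1 library and genes are not replicates, the difference was not tested.

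No member had an interval in its body alone, so that the count within 1 kb of an end or in the body was also 18 (19.5% of all protein-coding genes). Body-only intervals occurred at 813 protein-coding genes (4.06%). A count of 0 among 38 members is close to that share. The median gene length was 35020 bp among the cytosolic, 28403 bp among the mitochondrial and 24115 bp among all protein-coding genes. FARS2, the mitochondrial phenylalanyl enzyme and the longest member at 521650 bp, had no interval.

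**Figure D1:**
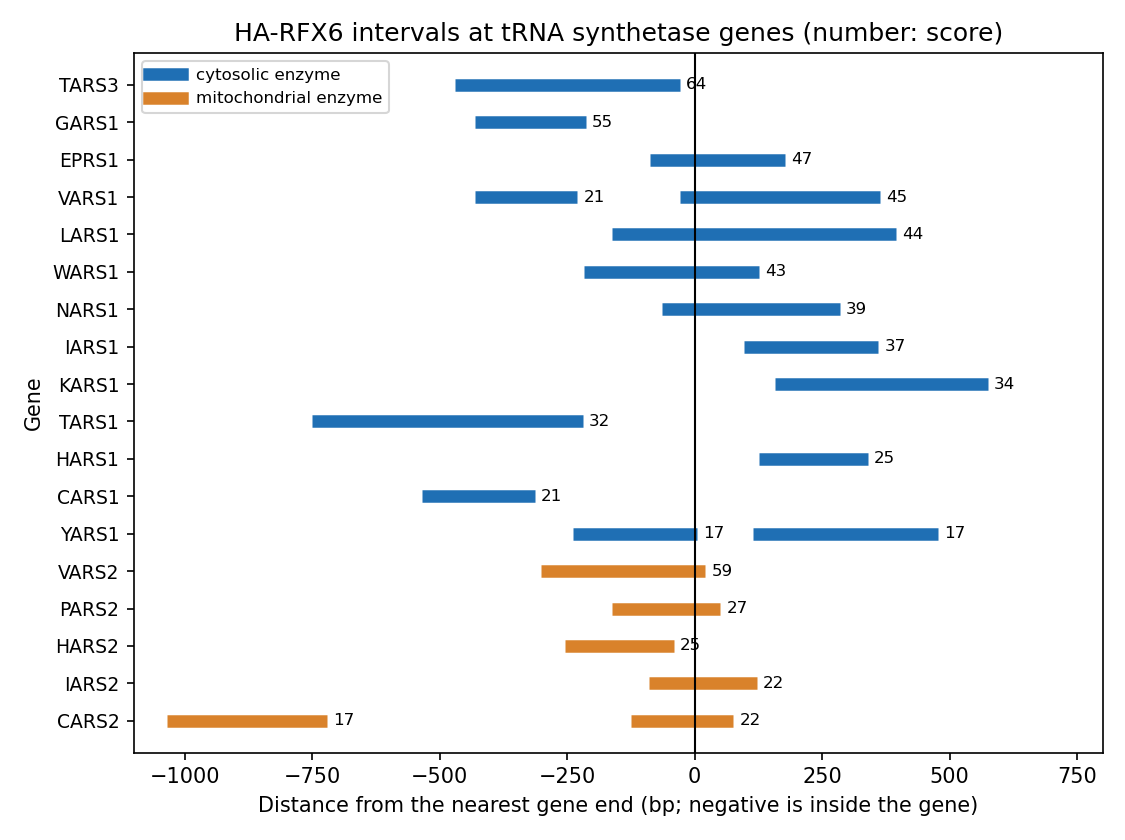
Each bar is 1 interval at 1 of the 18 genes with an interval within 1 kb of an end, drawn by its distance in bp from the nearest gene end (0; negative is inside the gene), with its score beside it. The 13 cytosolic genes are blue and the 5 mitochondrial genes orange, and VARS2 is the only mitochondrial gene scoring at least 30.

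The cytosolic genes also carried the higher scores. The highest-scoring interval per gene had a median score of 39 among the 13 cytosolic genes (range 17 to 64) and of 25 among the 5 mitochondrial genes (range 22 to 59). When only intervals with a score of at least 30 were counted, 10 of 20 cytosolic genes (50.0%, 29.9% to 70.1%) and 1 of 16 mitochondrial genes (6.25%, 1.11% to 28.3%) remained, against 9.50% of all protein-coding genes. The difference was then 43.8 percentage points (13.9 to 64.5). The mitochondrial share was thus above that of all genes over the full list and below it among the higher scores, and both Wilson intervals included the share of all genes. The score ranges of the compartments overlapped.

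Among the cytosolic enzymes, TARS3 had the highest score. TARS3 is a second cytosolic threonyl enzyme and a paralog of TARS1. Its interval, chr15:101724003-101724444, scored 64 (rank 218 of 5019) and lay inside the gene, 250 bp from the high-coordinate end. At TARS1, chr5:33440916-33441446 scored 32 and 14 on its lines and covered a listed transcription start. Its midpoint was 485 bp inside the gene record.

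GARS1, the glycyl enzyme of both compartments, had an interval of score 55 (rank 466), chr7:30594949-30595164. It lay 178 bp downstream of the nearest of the listed starts. KARS1, the lysyl enzyme of both compartments, had an interval of score 34, chr16:75647823-75648240, 366 bp upstream of its start. The latter overlapped TERF2IP, a telomere protein gene, whose end was nearer. Without GARS1 and KARS1, 11 of 18 cytosolic genes had an interval (61.1%), and the interval of the difference from the mitochondrial genes, 29.9 percentage points, included 0 (-3.28 to 55.1).

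In the multi-synthetase complex, EPRS1, IARS1, LARS1 and KARS1 had an interval, and RARS1, MARS1, QARS1, AIMP1 and AIMP2 did not (4 of 9, 44.4%, 18.9% to 73.3%). Of the cytosolic enzymes outside it, 9 of 13 had one (69.2%, 42.4% to 87.3%), and the Wilson intervals overlapped. The groups are unlike, since the complex counts its scaffolds AIMP1 and AIMP2 (0 of 2) and the other group holds enzymes only. The further scaffold of the complex, EEF1E1, is not among the members. EPRS1 joins glutamyl and prolyl activities in a single chain. Its interval, chr1:220046418-220046682 with a score of 47, covered the transcription start. At LARS1, the leucyl enzyme and a leucine sensor for mTORC1, chr5:146182487-146183044 scored 44 and spanned the high-coordinate end. With 558 bp it was the widest of the member intervals.

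IARS1, the isoleucyl enzyme, had an interval of score 37, chr9:92293794-92294057, 228 bp upstream of the start. At NARS1, the asparaginyl enzyme, chr18:57621772-57622121 scored 39 and covered the start. WARS1, the tryptophanyl enzyme, had chr14:100376109-100376452 with a score of 43, which covered a listed start and was within 1 kb of an end of WDR25. VARS1, the valyl enzyme, had a pair of intervals on chromosome 6. The interval from 31795723 to 31796115 scored 45 and spanned the high-coordinate end, and the one from 31795323 to 31795522 scored 21.

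The weakest cytosolic genes were YARS1 and CARS1. YARS1, the tyrosyl enzyme, had intervals from 32817120 to 32817362 and from 32817473 to 32817836 on chromosome 1, both with a highest score of 17 and both overlapping S100PBP. CARS1, the cysteinyl enzyme, was the exception in position. Its only interval, chr11:3001244-3001463 with a score of 21, was 424 bp inside the low-coordinate end, which is the far end of this gene on the minus strand. It lay 39630 bp downstream of the nearest listed start.

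Among the mitochondrial enzymes, VARS2 stood above the others with a score of 59 (rank 319), whereas the remaining genes had scores of 27 or less. Its interval, chr6:30914218-30914539, spanned the low-coordinate end of VARS2 and was within 1 kb of an end of GTF2H4, a TFIIH subunit gene. PARS2, the prolyl enzyme, had chr1:54764362-54764573 with a score of 27, covering the start. IARS2, the isoleucyl enzyme, had chr1:220094010-220094222 with a score of 22, also covering the start. EPRS1 and IARS2 lie on the same chromosome, 47626 bp apart. At CARS2, the cysteinyl enzyme, the intervals from 110712487 to 110712801 (score 17) and from 110713399 to 110713598 (score 22) on chromosome 13 overlapped ING1, a tumour suppressor gene. Relative to the nearest listed start of CARS2, their midpoints were at -6129 bp and -6984 bp, although its gene record extends to that point.

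HARS1 and HARS2, the cytosolic and mitochondrial histidyl enzymes, run in opposite directions from starts with 84 bp between them, and shared 1 interval, chr5:140691497-140691709 with a score of 25. It was 233 bp upstream of the HARS1 start and 148 bp inside HARS2, and it counted in both compartments. Leaving out both genes gave a difference of 36.5 percentage points (2.90 to 60.2).

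To show which promoter bases were covered, stretches before the start are given for genes whose interval overlapped the stretch. They run 5′ to 3′ along the gene, from RefSeq (GRCh38.p14), with capitals for bases within the deposited interval. EPRS1 and NARS1 are shown as complex-bound and free cytosolic enzymes with a covered start. IARS1 and IARS2 are shown as cytosolic and mitochondrial enzymes for the same amino acid, and PARS2 as a mitochondrial gene with no other coding end within 1 kb of its interval. The windows are chr1:220046506-220046755 (minus) for EPRS1, chr18:57621837-57622086 (minus) for NARS1, chr9:92293698-92293947 (minus) for IARS1, chr1:220093882-220094131 (plus) for IARS2 and chr1:54764524-54764773 (minus) for PARS2.
EPRS1: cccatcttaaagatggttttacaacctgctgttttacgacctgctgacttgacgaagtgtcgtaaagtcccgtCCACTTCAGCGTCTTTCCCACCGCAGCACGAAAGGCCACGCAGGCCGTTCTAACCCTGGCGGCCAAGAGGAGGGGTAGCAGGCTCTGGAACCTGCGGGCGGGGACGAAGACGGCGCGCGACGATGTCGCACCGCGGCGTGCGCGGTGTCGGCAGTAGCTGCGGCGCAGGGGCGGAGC
NARS1: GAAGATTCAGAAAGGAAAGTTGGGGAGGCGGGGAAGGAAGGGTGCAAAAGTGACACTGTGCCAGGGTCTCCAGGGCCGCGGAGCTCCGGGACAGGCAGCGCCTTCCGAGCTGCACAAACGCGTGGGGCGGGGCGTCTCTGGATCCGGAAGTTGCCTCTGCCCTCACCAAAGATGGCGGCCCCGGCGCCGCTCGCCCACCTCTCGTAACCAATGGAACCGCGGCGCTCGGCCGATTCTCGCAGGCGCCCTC
IARS1: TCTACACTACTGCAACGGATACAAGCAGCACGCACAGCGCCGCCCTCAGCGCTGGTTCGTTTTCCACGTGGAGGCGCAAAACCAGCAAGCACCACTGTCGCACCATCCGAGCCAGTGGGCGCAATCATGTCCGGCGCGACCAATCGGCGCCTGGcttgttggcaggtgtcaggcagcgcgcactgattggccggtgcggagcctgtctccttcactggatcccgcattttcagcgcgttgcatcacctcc
IARS2: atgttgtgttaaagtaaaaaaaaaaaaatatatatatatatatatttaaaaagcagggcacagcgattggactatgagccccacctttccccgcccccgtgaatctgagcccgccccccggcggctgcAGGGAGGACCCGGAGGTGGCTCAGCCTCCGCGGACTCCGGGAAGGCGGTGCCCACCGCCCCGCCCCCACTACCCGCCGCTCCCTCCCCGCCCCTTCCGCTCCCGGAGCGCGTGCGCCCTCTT
PARS2: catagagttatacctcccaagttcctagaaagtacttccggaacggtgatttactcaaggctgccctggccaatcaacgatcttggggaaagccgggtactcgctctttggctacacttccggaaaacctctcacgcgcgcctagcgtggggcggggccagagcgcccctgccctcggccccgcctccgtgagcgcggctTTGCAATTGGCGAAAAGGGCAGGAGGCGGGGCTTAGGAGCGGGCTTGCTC

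The interval covered all 250 bases shown at NARS1, 177 at EPRS1, 154 at IARS1, 122 at IARS2 and 50 at PARS2. At IARS1 the covered bases were the distal ones, and at the other partly covered promoters they were those next to the start. The stretch between HARS1 and HARS2, chr5:140691371-140691454 on the plus strand, lay outside the shared interval and is shown because both genes start from it.
HARS1 to HARS2: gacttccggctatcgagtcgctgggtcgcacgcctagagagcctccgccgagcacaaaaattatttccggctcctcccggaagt

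The start could be told from the far end for 32 of the 38 genes, through the strand in the RefSeq promoter table. AARS2, LARS1, TARS3, VARS1, VARS2 and YARS1 had no entry there. Among the 32, the start end held an interval in 12 (37.5%, compared with 15.1% of 15843 protein-coding genes with a known strand), and CARS1 alone had one at the far end (3.12%, compared with 1.15%). The intervals of all genes lay mostly at the start end as well. The median distance from the interval to the gene end was 197.5 bp over the 20 distinct member intervals, and 194.5 bp over the 3054 intervals within 1 kb of any coding gene end. Likewise, 55.0% of the former and 57.1% of the latter scored at least 30.

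Cytosolic enzymes were then set beside the mitochondrial enzyme for the same amino acid, which gave 14 pairs. FARSA stood for the phenylalanyl enzyme and TARS1 for the threonyl enzyme, so FARSB (no interval) and TARS3 (score 64) were not in a pair, and neither were EPRS1, GARS1, KARS1 and QARS1, for which no mitochondrial gene of the same single amino acid was among the members. Both genes had an interval in 4 pairs, for cysteine, histidine, isoleucine and valine. Only the cytosolic gene had one in 5 pairs, for leucine, asparagine, threonine, tryptophan and tyrosine. Neither did in 5 pairs, for alanine, methionine, arginine, serine and phenylalanine, and in 0 pairs was it the mitochondrial gene alone. PARS2 and EARS2, the prolyl and glutamyl enzymes of mitochondria, both have EPRS1 as their cytosolic counterpart, and of these EARS2 had no interval. By catalytic fold, 9 of 18 class I genes (50.0%) and 8 of 17 class II genes (47.1%) had an interval, a difference far within the Wilson intervals (29.03% to 71.0% and 26.2% to 69.04%).

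The 20 genes without an interval also differed in how far the nearest one was. For the 7 cytosolic genes the distance from the gene to the midpoint of the nearest interval had a median of 12234 bp. QARS1, the glutaminyl enzyme, was closest, at 1559 bp from an interval of score 69 at QRICH1, and FARSB, the beta subunit of the phenylalanyl enzyme, was farthest, at 205055 bp. QARS1 became a further member with an interval when the window was 2 kb, which made 19. AARS1, SARS1, FARSA, MARS1 and RARS1 lay between these, from 9836 to 60262 bp. For the 11 mitochondrial genes the median was 140025 bp. It ranged from 20631 bp at AARS2 to 550241 bp at SARS2, so the ranges overlapped. AIMP2 was 35258 bp and AIMP1, on chromosome 4, 4967990 bp from the nearest interval.

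**Figure D2:**
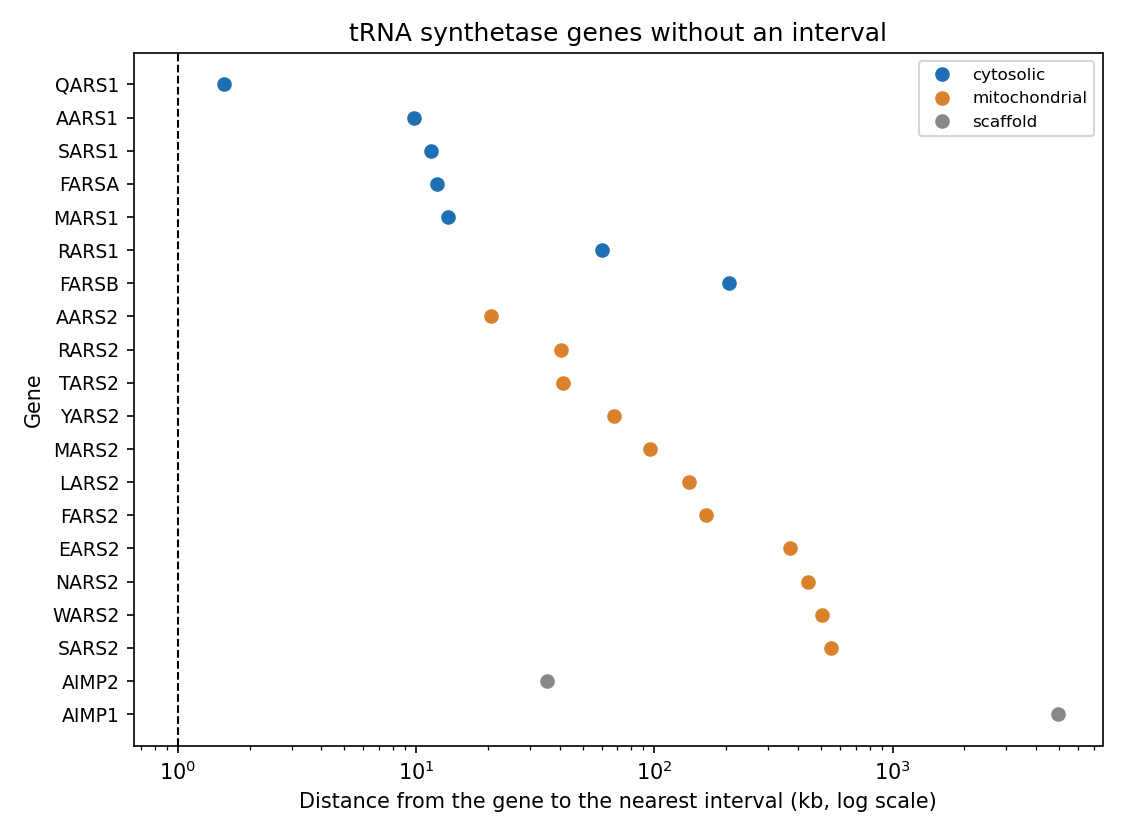
Distance in kb (log scale) from each of the 20 genes without an interval to the midpoint of the nearest interval, with the dashed line at 1 kb. QARS1 lies closest at 1559 bp, 5 of the 7 cytosolic genes lie below the nearest mitochondrial gene, AARS2 at 20631 bp, and AIMP1 is farthest.

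Features of the genes that could bear on these counts were set beside them, and their part in the result was not tested. The chromosomes carrying the cytosolic genes had an interval at 17.5% of their protein-coding genes on average over the 20 genes, and those of the mitochondrial genes at 15.3% over the 16. Another coding gene end lay within 1 kb of 7 of 20 cytosolic genes (35.0%) and of 9 of 16 mitochondrial genes (56.2%), against 28.5% of all genes. Among all genes those with such a neighbour had an interval more often (22.3%) than those without (12.8%). Among genes without a coding neighbour, 8 of 13 cytosolic and 1 of 7 mitochondrial genes had an interval. The GC content of the promoter windows was alike, with a median of 61.8% in 16 cytosolic, 62.3% in 14 mitochondrial and 62.7% in all promoters. Among all genes, the median was 68% in those with an interval at an end and 61.7% in those without. Among members it was 62.3% and 60.7%. At 7 of the 18 genes another coding gene end was also within 1 kb of an interval, and a peak there cannot be given to either gene from the list.

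Finally, the synthetases were placed among other translation genes. Of 53 translation factors 18 had an interval (34.0%, 22.7% to 47.4%), of 88 cytosolic ribosomal protein genes 22 (25.0%, 17.1% to 35.0%) and of 77 mitochondrial ribosomal protein genes 12 (15.6%, 9.15% to 25.3%). The lower limit for the cytosolic synthetases, 43.3%, was above the upper limit for both sets of ribosomal protein genes and below that for the translation factors. These groups were not tested against each other. Among further genes of tRNA charging, 7 with an interval were GATC, a subunit of the mitochondrial glutamyl-tRNA amidotransferase (scores 53 and 25, shared with TRIAP1), EIF2AK4, the kinase GCN2 that senses uncharged tRNA (39), PSTK and SEPSECS, which make selenocysteinyl-tRNA (37 and 25), MTFMT, which formylates mitochondrial initiator tRNA (30), AARSD1, an alanyl-tRNA editing protein (29), and DTD2, which removes mischarged amino acids (25). The scaffold EEF1E1, GATB, QRSL1, SEPHS2, DTD1, PTRH2, PTRHD1 and MTRFR had none. The interval of AARSD1 also overlapped the gene PTGES3L-AARSD1. The list of these further genes is not reported in full, so no share was set beside the 15.5% of all protein-coding genes.

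**Figure D3:**
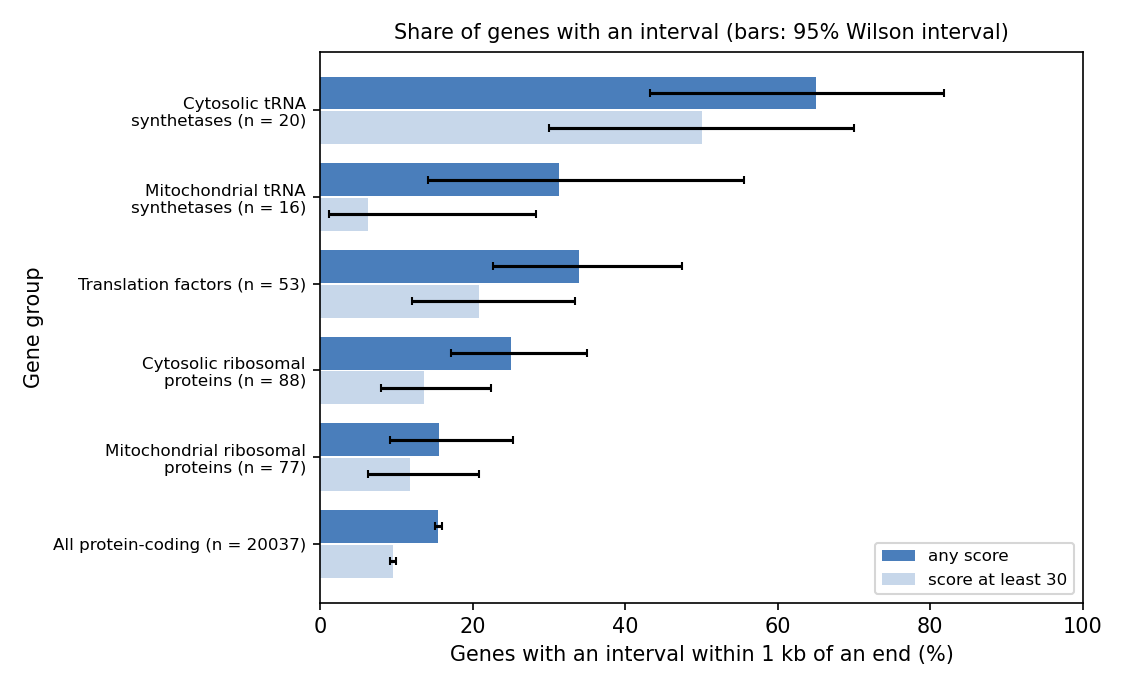
Percentage of genes in each group with an interval within 1 kb of an end, over all scores (dark) and for scores of at least 30 (light), with 95% Wilson intervals as error bars. The cytosolic synthetases reach 65.0% and 50.0%, the mitochondrial ones 31.2% and 6.25%, and all protein-coding genes 15.5% and 9.50%.

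The promoters were then searched for motifs on both strands, in the window of 300 bases from 250 before to 50 after the first listed start, in 32 members and in 15843 protein-coding genes. A single RFX motif arm, GTTGCC, was in 7 of the 32 windows (21.9%, all genes 12.6%), namely those of CARS1, CARS2, FARSB, HARS1, HARS2, MARS2 and NARS1. HARS1 and HARS2 windows overlap. Among all genes, the arm was in 12.3% of the windows of genes with an interval and in 12.6% of those without. Among members the shares were 38.5% (5 of 13) and 10.5%, and this difference was not tested. Of these 5, CARS1 had its interval only at the far end. The intervals of CARS2 lay at -6129 bp and -6984 bp from its nearest listed start. Both were thus outside the searched windows, and HARS1 and HARS2 shared 1 interval. A whole X-box, written as GTTNCC and GGNAAC with 0 to 3 bases between, was in 0 of 32 (0.776% of all). Over all genes it was in 0.675% with an interval and 0.796% without. At NARS1, GTTGCC began 101 bases before the start, within the interval, and overlapped by 1 base an ETS motif that began at 107.

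The ETS motif, CCGGAAG, was in 14 of 32 windows (43.8%, all genes 14.2%), at similar shares in cytosolic (8 of 16) and mitochondrial (6 of 14) genes. It occurred at 82 and 8 bases before the HARS2 start in the stretch shown above. The core of the amino acid response element, TGATGCA, was in 6 of 16 cytosolic windows (37.5%) and in 0 of 14 mitochondrial ones. All genes gave 2.04%, those with an interval 0.834% and those without 2.27%. The 6 cytosolic genes were AARS1, CARS1, IARS1, MARS1, NARS1 and TARS1, of which AARS1 and MARS1 had no interval and CARS1 had one only at its far end. At IARS1 the core began 12 bases before the start, outside the interval. Conversely, the NRF1 core, GCATGCG, was in 3 of 14 mitochondrial windows (MARS2, NARS2 and YARS2, all without an interval) and in 0 of 16 cytosolic ones, against 5.14% of all. The E-box CACGTG was in 4 of 32 (12.5%, all 8.88%), CCAAT in 17 (53.1%, all 36.4%) and the GC box GGGCGG in 22 (68.8%, all 58.5%). Over all genes the GC box was in 76.9% of the windows with an interval and in 55.0% of those without. Among members these shares were 69.2% and 68.4%. A match describes these letters only and does not show that a factor was bound.

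**Figure D4:**
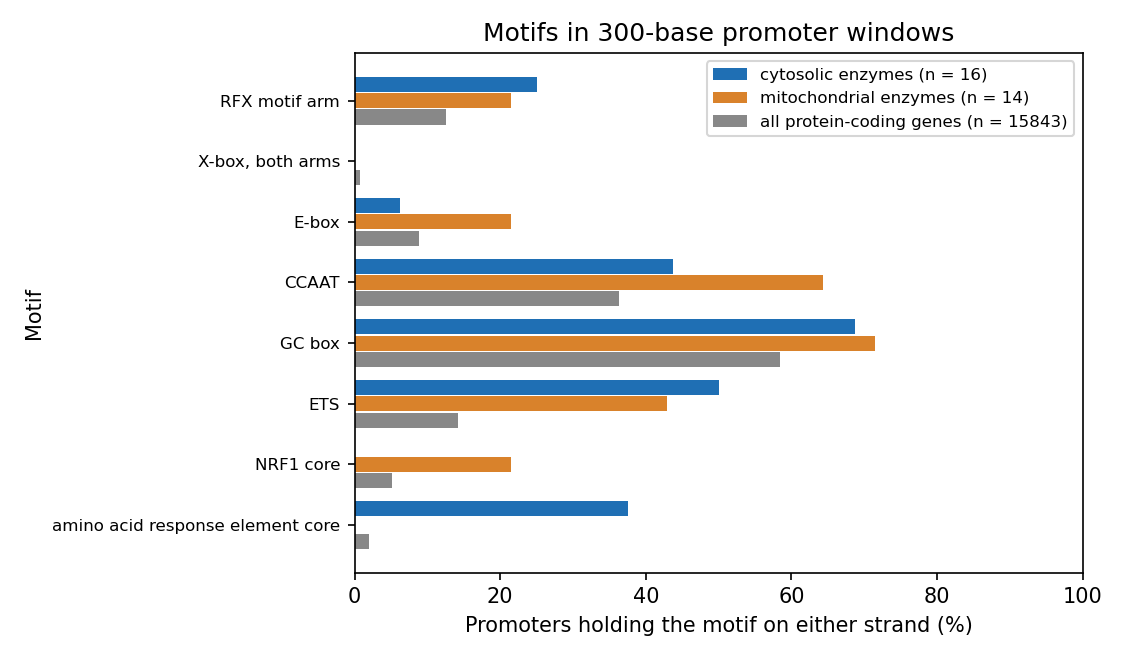
Percentage of 300-base promoter windows holding each motif on either strand, for 16 cytosolic enzymes (blue), 14 mitochondrial enzymes (orange) and 15843 protein-coding genes (grey). The amino acid response element core is present in 37.5% of cytosolic and in none of the 14 mitochondrial windows, and the ETS motif in 50.0% and 42.9%, compared with 14.2% of all.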

How the data were processed

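Chromatin of HA-RFX6-overexpressing MHCC-97H cells was sequenced by the authors after anti-HA precipitation, and peaks were called with MACS2 2.1.0.2, per the labels. The aligner and the control used in calling are not given in the sources used here. The authors deposited 1 peak list without a header, whose score column is a whole-number score of unstated meaning. No read counts were used, so the depth is unknown. Of 6214 lines, 1 had digit separators in its positions and was repaired. Lines with the same position were counted once at their highest score. Starts were taken as 0-based and are printed 1-based. Genes came from the RefSeq table of GRCh38.p14 and promoters from the RefSeq promoter table. An interval belonged to a gene when its midpoint was within 1 kb of either end, or inside it. Samples were grouped by title. Members and lists were chosen with earlier results of these data known. All members were named. The list of further tRNA charging genes is not reported in full here, and no share was given for it. Alternatives were scores of at least 20 or 30, windows of 2 kb and 5 kb, overlap of 1 bp, nearest end, merging, moves of 20 kb and start ends alone. The pairing by amino acid was added after the counts were seen. Shares have 95% Wilson and differences 95% Newcombe intervals, covering counting only, and no p-value was computed. Python 3.11.15, numpy 2.4.6, pandas 2.3.3, scipy 1.17.1 and matplotlib 3.10.9 were used, and the counting was tested on simulated data.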

Additional observations from a re-analysis of the deposited data

How the results depend on the processing

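The cytosolic share stayed above the mitochondrial one in every alternative that kept the intervals in place, with differences from 23.8 to 43.8 percentage points. The Newcombe interval included 0 for scores of at least 20 (28.8, -3.63 to 53.7), by the nearest coding gene end (23.8, -8.27 to 49.4), at known start ends (28.8, -3.63 to 53.7) and without GARS1 and KARS1. For scores of at least 30, the 18 members fell to 11, by either count, and the 5 mitochondrial genes to 1. CARS1, CARS2, HARS1, HARS2, IARS2, PARS2 and YARS1 dropped out there, YARS1 at 20, HARS1 and KARS1 by the nearest end, and CARS1 at start ends. Intervals moved by 20 kb down left 1 member with an end interval (cytosolic 1, mitochondrial 0), and moved up 1 (cytosolic 0, mitochondrial 1), where the difference was reversed at -6.25. With bodies included, the downward move gave 14 members (36.8%, all genes 12.8%) and the upward move 8 (21.1%, all genes 12.7%). No paired analysis was possible because a single library underlies the list, and no library could be left out. The depth is unknown, so absence of an interval may reflect few reads.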

Other observations

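The substrates of these enzymes were also looked up. Of 443 tRNA genes, 16 (3.61%) had an interval within 1 kb, spread over 10 amino acids. Of all protein-coding genes, 15.5% had one within 1 kb of an end. After the intervals were moved by 20 kb down and up, 2.01% and 2.05% of the protein-coding genes did. These shares are not like for like. The ends of a coding gene mostly lie far apart and those of a tRNA gene close together, so more sequence was searched per coding gene. No count of tRNA genes after such a move is given here. The counts per amino acid were small and were not tested. There were 3 genes each for leucine (TRL) and arginine (TRR), 2 each for aspartate (TRD) and proline (TRP), and 1 each for phenylalanine, glycine, isoleucine, threonine, valine and tryptophan. The leucine genes were 3 of 32 and the tryptophan gene 1 of 7. Counted by symbol, no gene of TRA for alanine (of 33), TRC for cysteine (of 29) or TRK for lysine (of 27) had one. Neighbouring tRNA genes can share an interval, and reads from near-identical tRNA copies may map to more than 1 place.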
